A study of Mus musculus with 12 samples.

Results

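The macrophage genes of the sciatic nerve and the factors that recruit macrophages were followed in *Mtmr2* KO mice, a model of the demyelinating neuropathy CMT4B1, with and without niacin. The set holds 10 genes chosen by symbol out of the 43432 genes of the count table. *Adgre1*, *Cd68*, *Csf1r*, *Cx3cr1*, *Trem2*, *Mrc1*, *Lyve1* and *Cd163* mark macrophages, and *Csf1* and *Ccl2* encode factors that sustain or attract them. All 10 were found, and all 10 were among the 17257 genes that passed the filter on low counts. PolyA RNA of 1 sciatic nerve per mouse was sequenced in 12 mice at 1 month of age, as 2 reads of 150 bases per fragment. The 4 WT control mice were *Mtmr2* wt/wt and untreated. The 4 *Mtmr2* KO mice were *Mtmr2* -/- on a 129/SvPas background and received no niacin. They carry no treatment in the labels and are called vehicle treated in the study. The 4 niacin-treated *Mtmr2* KO mice were *Mtmr2* -/- and received niacin by intraperitoneal injection at 120 mg/kg from day 10 to day 21. They then received slow release niacin by gavage, at a higher dose, until day 30. Each group held 3 males and 1 female.

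Resident macrophages of a peripheral nerve occupy separate compartments. Endoneurial macrophages lie among the myelinated fibres and are known for the fractalkine receptor *Cx3cr1*, whereas epineurial macrophages lie in the sheath and are known for the scavenger and lectin receptors *Mrc1*, *Lyve1* and *Cd163*. Both depend on the CSF1 receptor, *Csf1r*, which binds CSF1 and IL34. CCL2 binds the receptor CCR2 and draws monocytes from blood, and in demyelinating neuropathies both CSF1 and CCL2 are known to be made by cells resident in the nerve.

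*Ccl2* is the first of 5 related CC chemokine genes in a row on the plus strand of chromosome 11, where it lies at chr11:82035571-82037453 (GRCm38). *Ccl7* follows at chr11:82045712-82047525, *Ccl11* at chr11:82057823-82062955, *Ccl12* at chr11:82101845-82103400 and *Ccl8* at chr11:82115185-82116799. Such neighbours could share reads, so the longest run of bases that the principal *Ccl2* transcript (813 bases) has in common with the principal transcript of each neighbour was looked up. The runs are given below because they set how far the counts of these genes can be told apart, with the shared bases in capitals.
*Ccl2* and *Ccl7*: CTCTCACTGAAGCCAGCTCTCTC
*Ccl2* and *Ccl11*: TCTGTGCTGACCCCAAGAAG
*Ccl2* and *Ccl12*: TCTGTGCTGACCCCAAG
*Ccl2* and *Ccl8*: TCACCTGCTGCT
They span 23, 20, 17 and 12 bases, each shorter than the reads of 150 bases, and the *Ccl11* and *Ccl12* runs start at the same base of *Ccl2*, 312. A read of full length cannot lie wholly within such a run, while mapping with mismatches was not examined.

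The genes lie on separate chromosomes or far apart, with coordinates on GRCm38 from GENCODE M21. *Adgre1*, encoding F4/80 (ENSMUSG00000004730), lies at chr17:57358691-57483527 on the plus strand. *Cd68* (ENSMUSG00000018774) lies at chr11:69664213-69666153, *Cx3cr1* (ENSMUSG00000052336) at chr9:119901616-120069879, *Lyve1* (ENSMUSG00000030787) at chr7:110850607-110863239 and *Csf1* (ENSMUSG00000014599) at chr3:107741048-107760469, these on the minus strand. *Csf1r* (ENSMUSG00000024621) lies at chr18:61100598-61132149, *Mrc1* (ENSMUSG00000026712) at chr2:14229392-14332057, *Cd163* (ENSMUSG00000008845) at chr6:124304656-124330527, *Trem2* (ENSMUSG00000023992) at chr17:48346401-48354147 and *Ccl2* (ENSMUSG00000035385) at the position given above, on the plus strand. Exons of *Csf1r* share 873 bases with the oppositely transcribed *Hmgxb3*, which was at 14.2 to 25.6 CPM (read counts scaled to a common library size) against 99.1 to 189 CPM for *Csf1r*. Exons of *Cx3cr1* share 78 bases with an antisense gene, *Gm33858*. No source used here states whether the counting used strand, so reads of these stretches could not be assigned to one gene.

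The total count on genes ran from 20763951 to 33191106 per library, with the niacin-treated libraries (20983641 to 22935378) below the WT controls (26653828 to 28390961). Levels are CPM after TMM scaling, and calls rest on the quasi-likelihood test of edgeR at a threshold of 0.05 on p-values adjusted over all 17257 genes. The level of *Mtmr2* was 128 to 161 CPM in WT controls and 66.8 to 84.7 CPM in 7 of the 8 libraries labelled *Mtmr2* -/-. The library labelled *Mtmr2* KO replicate 4503 was at 143 CPM, within the WT range, and the values of *Cx3cr1*, *Cd163*, *Csf1* and *Ccl2* are given with and without it. Fitted without this library and *Mtmr2* KO replicate 4502, which stood apart in macrophage genes, the calls on the 10 genes differed, as described with the libraries left out. Summed over 8 genes of myelinating Schwann cells, the main cell of the nerve, the level was 89440 to 113207 CPM in WT controls, 85481 to 117572 CPM in *Mtmr2* KO and 62167 to 101737 CPM under niacin. All 8 had a negative log2 fold change in niacin against *Mtmr2* KO (median -0.37), of which edgeR called 0 (unadjusted p under 0.05 for 3), DESeq2 2 and limma-voom 3. *Xist*, which marks female nerves, was at 545 to 687 CPM in 1 nerve of each group (WT control replicate 4498, *Mtmr2* KO replicate 4502 and niacin-treated replicate 4506) and at 2.12 to 5.99 CPM in the others. No 2 libraries of a group were alike within sampling noise, the lowest chi-square per gene being 11.6. This chi-square was 11.6 to 33.7 between WT controls and 25.1 to 66.6 between niacin-treated nerves. Between untreated *Mtmr2* KO nerves it was 187 to 332 for pairs with replicate 4502. It was 115 and 118 for replicate 4503 with replicates 4501 and 4504, and 38.1 between replicates 4501 and 4504. In bulk RNA fewer macrophages and less RNA per macrophage cannot be told apart.

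In WT control nerves *Csf1r* was the most abundant of the 10 genes per kilobase of the principal transcript, at 26.6 ± 1.75 CPM per kb (SD, n = 4). *Mrc1* (20.1 ± 1.31 CPM per kb), *Cd163* (19.1 ± 2.44) and *Lyve1* (18.3 ± 3.60) followed, their ranges over the 4 nerves overlapped, and all lay below *Csf1r*. *Cd68* was at 13.7 ± 2.12 CPM per kb, overlapping the latter pair. *Adgre1* (8.63 ± 0.784), *Trem2* (8.60 ± 1.43) and *Csf1* (8.55 ± 1.38) overlapped one another and lay below *Cd68*. *Ccl2* (4.19 ± 1.20 CPM per kb) and *Cx3cr1* (3.05 ± 0.199) were lowest and overlapped. The epineurial type receptors thus stood above *Cx3cr1* in every WT nerve, between 15.1 and 23.4 CPM per kb against 2.80 to 3.28. The order is firm only where the length is: over all annotated exons *Trem2* is 4946 bases long instead of 1088 and was the lowest gene, at 1.89 ± 0.314 CPM per kb.

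None of the 10 genes was called by edgeR in *Mtmr2* KO against WT control nerves, where 0.267% of all genes tested were called. None was called in niacin-treated against untreated *Mtmr2* KO nerves, where 1.43% of genes were, or in niacin-treated *Mtmr2* KO against WT control nerves, where 0% were. At an unadjusted p under 0.05 the counts were 1, 4 and 3 of 10, against 17.2%, 20.1% and 24.7% of all genes. DESeq2 called 0, 1 and 1 of the 10, against 3.71%, 6.22% and 7% of all genes. Limma-voom with sample quality weights called 0, 1 and 4, against 0.626%, 11.6% and 42.4%. The median log2 fold change of the 8 macrophage genes was 0.08, 0.31 and 0.35, against 0.03, -0.04 and 0.02 over all genes tested. Without *Mtmr2* KO replicate 4502 the medians of the 8 genes were -0.15, 0.45 and 0.33, and without replicate 4503 they were -0.03, 0.21 and 0.35. Each pair of comparisons shares the libraries of 1 group. The 4 nerves of one group lay wholly to one side of the other for 0 of 10 genes in the first comparison (9.32% of all genes), for *Ccl2* in the second (7.01%) and for 5 of 10 genes in the third (31.4%).

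**Figure D1:**
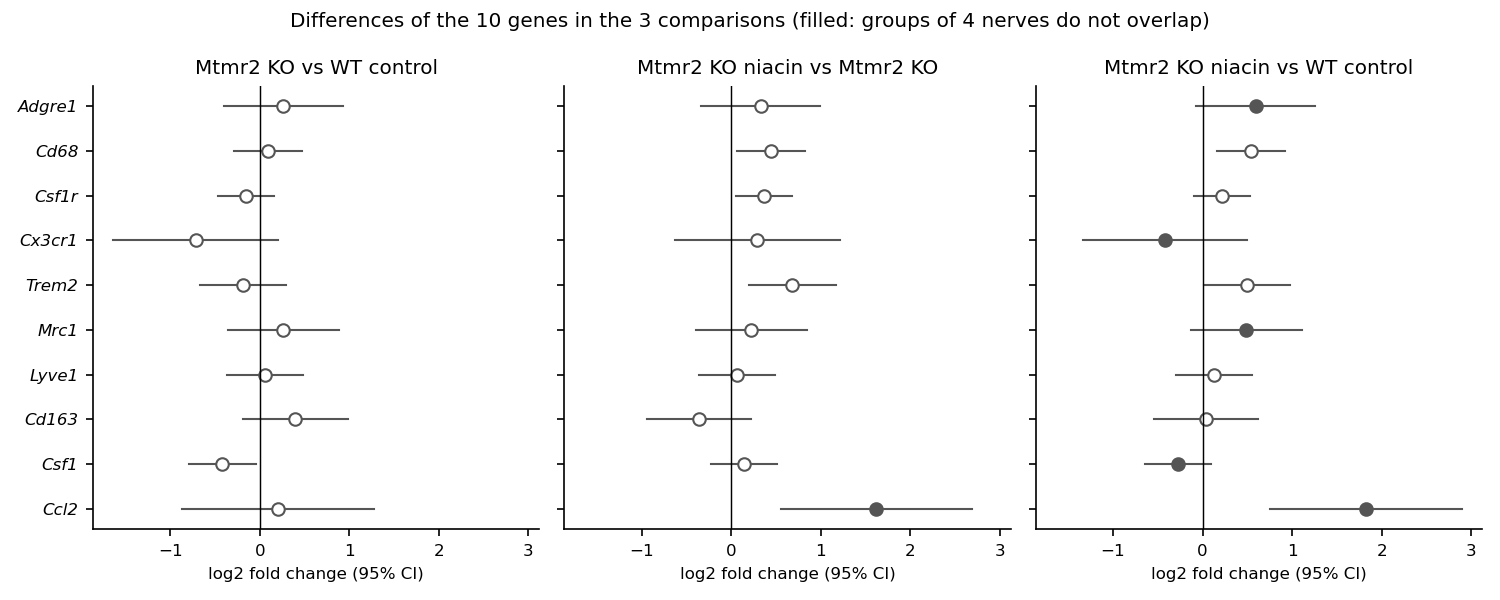
Log2 fold change of each of the 10 genes (x axis) in the 3 comparisons, with its 95% confidence interval from the edgeR fit, and filled points where the 2 groups of 4 nerves did not overlap. *Ccl2* lies furthest from 0, at 1.62 in niacin-treated against untreated *Mtmr2* KO and 1.82 against WT control, and it is the only filled point in the middle panel.

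*Adgre1* was at 27.4, 25.2, 27.7 and 31.4 CPM in WT controls, at 22.9, 64.1, 21.3 and 25.9 CPM in *Mtmr2* KO replicates 4501 to 4504, and at 49.2, 31.4, 32.9 and 54.9 CPM in niacin-treated *Mtmr2* KO nerves. A single untreated nerve, *Mtmr2* KO replicate 4502, the only female of its group, stood above all others. The other 3 of that group lay within or below the WT range. The log2 fold change of KO against WT was 0.26 (SE 0.31, adjusted p = 0.690). Niacin-treated nerves did not overlap WT controls, though the lowest treated and the highest WT nerve both rounded to 31.4 CPM, and the log2 fold change was 0.59 (SE 0.31, adjusted p = 0.242).

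*Cd68*, a lysosomal glycoprotein of phagocytes, was at 15.5, 14.9, 16.4 and 20.7 CPM in WT controls, at 14.3, 22.5, 16.5 and 18.8 CPM in *Mtmr2* KO, and at 31.0, 19.9, 21.2 and 26.1 CPM under niacin. The 3 groups overlapped. The niacin-treated group was the highest, by 0.45 on the log2 scale (SE 0.18, 95% CI 0.07 to 0.83, adjusted p = 0.184) against *Mtmr2* KO and 0.54 (SE 0.18, adjusted p = 0.120) against WT. *Csf1r* was at 127, 118, 136 and 120.0 CPM in WT controls, at 99.1, 111, 111 and 131 CPM in *Mtmr2* KO, and at 189, 138, 124 and 131 CPM under niacin. Niacin-treated replicate 4505 stood above the other 11 nerves, and the groups overlapped. The log2 fold change of *Csf1r* was 0.36 (SE 0.15, adjusted p = 0.190) for niacin against *Mtmr2* KO, and 0.22 without replicate 4505. It was -0.15 (SE 0.15, 95% CI -0.46 to 0.16) for *Mtmr2* KO against WT.

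**Figure D2:**
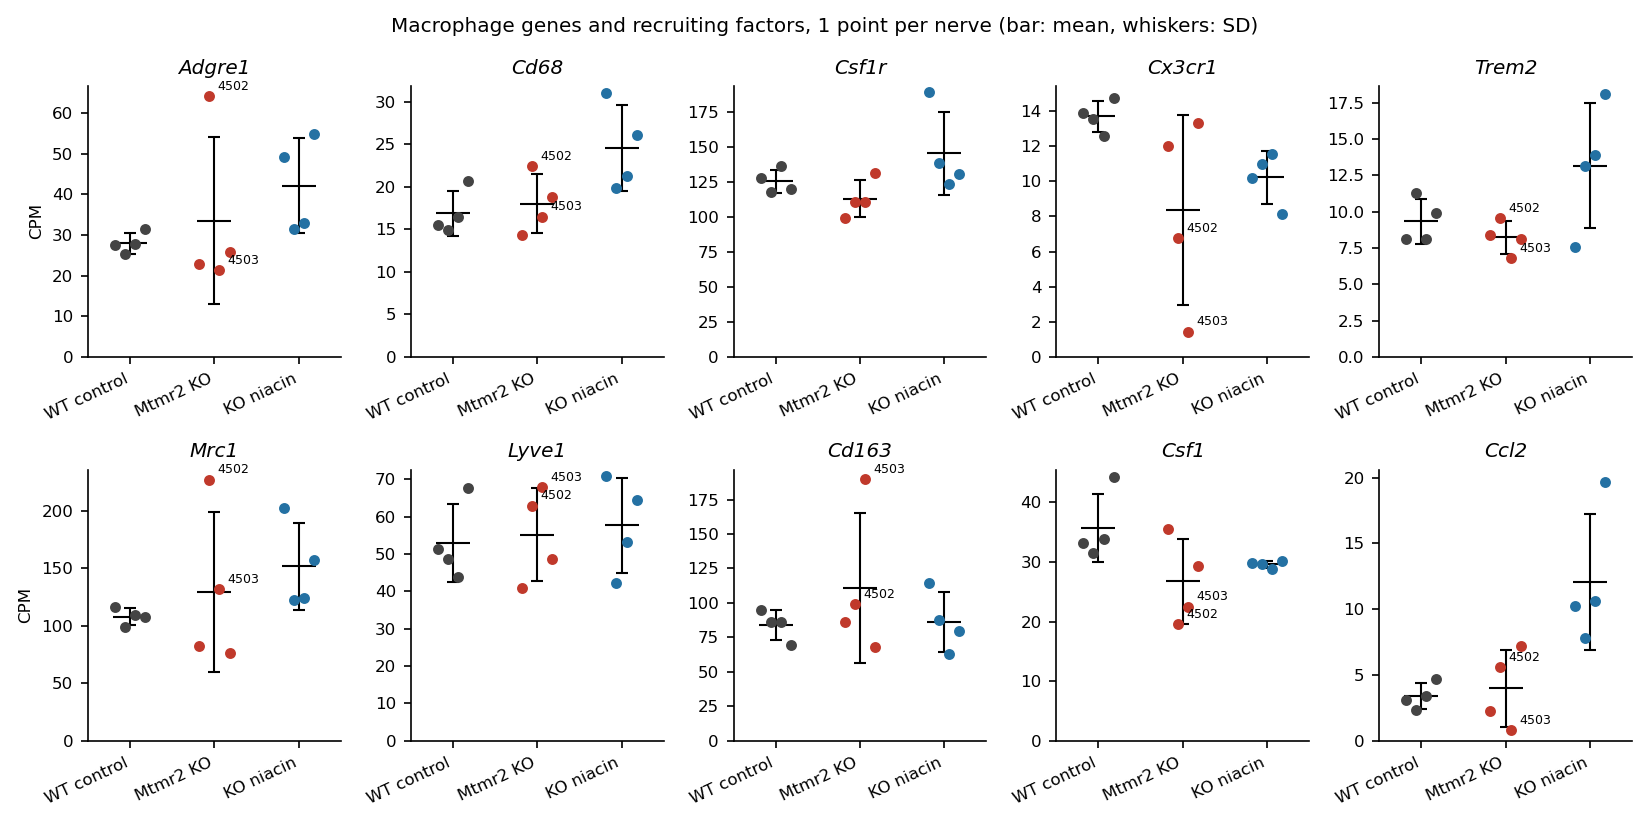
CPM (y axis, from 0) of the 10 genes in each of the 12 nerves, by group, with the mean as a bar and the SD as whiskers, and *Mtmr2* KO replicates 4502 and 4503 labelled except for *Csf1r*. Replicate 4502 is the highest of its group for *Adgre1* (64.1 CPM) and *Mrc1* (227 CPM), replicate 4503 is the lowest of all 12 for *Cx3cr1* (1.44 CPM) and *Ccl2* (0.833 CPM), and *Ccl2* in all 4 niacin-treated nerves lies above the other 8.

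*Cx3cr1*, the endoneurial type receptor, was at 13.9, 13.6, 12.6 and 14.8 CPM in WT controls, at 11.98, 6.77, 1.44 and 13.3 CPM in *Mtmr2* KO replicates 4501 to 4504, and at 10.2, 11.01, 11.6 and 8.15 CPM under niacin. The WT nerves were tightly grouped, and the untreated *Mtmr2* KO nerves spread from near the WT level to a count of 45 in the library labelled replicate 4503. The log2 fold change of KO against WT was -0.71 (SE 0.43, 95% CI -1.64 to 0.21, adjusted p = 0.407). It was -0.36 without replicate 4503 and -0.11 without replicates 4502 and 4503. Each niacin-treated nerve was below each WT control, at -0.42 on the log2 scale (SE 0.43, adjusted p = 0.543). Against untreated *Mtmr2* KO it was 0.29 (SE 0.43), which turned to -0.06 without replicate 4503.

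*Trem2*, a lipid receptor of phagocytic macrophages, was at 8.11, 11.3, 8.10 and 9.94 CPM in WT controls, at 8.40, 9.55, 6.83 and 8.13 CPM in *Mtmr2* KO, and at 7.59, 13.1, 13.9 and 18.1 CPM in niacin-treated replicates 4505 to 4508. Of the treated nerves 3 lay above the other 8 nerves, and replicate 4505 lay below all but 1 of them. The log2 fold change was 0.68 (SE 0.23, 95% CI 0.20 to 1.17, adjusted p = 0.124) for niacin against *Mtmr2* KO. Without niacin-treated replicate 4505 it was 0.87 and called, a call that was not set against the share of all genes in that fit.

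Of the epineurial type receptors, *Mrc1*, the mannose receptor, was at 116, 99.3, 109 and 107 CPM in WT controls, at 82.6, 227, 132 and 76.7 CPM in *Mtmr2* KO, and at 203, 122, 124 and 157 CPM under niacin. The untreated *Mtmr2* KO nerves held both the highest and the lowest values of the 12. Niacin-treated nerves did not overlap WT controls (log2 fold change 0.49, SE 0.29, adjusted p = 0.292, and 0.31 without replicate 4505). *Lyve1*, the hyaluronan receptor, was at 51.3, 48.6, 43.8 and 67.8 CPM in WT controls, at 41.0, 63.0, 67.9 and 48.7 CPM in *Mtmr2* KO, and at 71.0, 42.3, 53.1 and 64.4 CPM under niacin. All 3 groups spanned much the same range, with log2 fold changes of 0.06 to 0.13 and 95% confidence intervals within -0.37 to 0.55. Lymphatic endothelium also makes *Lyve1*, and its defining gene *Prox1* was at 0.509 to 5.88 CPM, with the highest value in WT control replicate 4500, where *Lyve1* was the highest of the WT group. In niacin-treated replicate 4505, the nerve highest in *Lyve1* of all, *Prox1* was at 0.539 CPM, and in the library labelled *Mtmr2* KO replicate 4503 it was at 1.06 CPM. The part of these cells in *Lyve1* was not tested.

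*Cd163*, the haemoglobin scavenger receptor, was at 94.8, 86.4, 85.9 and 69.2 CPM in WT controls, at 85.9, 98.9, 189.7 and 68.0 CPM in *Mtmr2* KO, and at 115, 87.7, 62.8 and 79.5 CPM under niacin. The library labelled replicate 4503 was above all other nerves. The log2 fold change of KO against WT was 0.40 (SE 0.27, adjusted p = 0.471) with that library and 0.0014 without it. The same library held the highest level of *Mertk*, an engulfment receptor, at 195 CPM against 45.4 to 75.0 CPM elsewhere. It also held the lowest *Retnla* (5.74 CPM against 23.5 to 107) and *Cd209f* (0.609 CPM against 2.47 to 24.2), both epineurial macrophage genes.

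The CPM of *Cx3cr1* was divided by that of each epineurial type receptor within a nerve. The ratio to *Mrc1* was 0.115 to 0.138 in the 4 WT controls. In untreated *Mtmr2* KO it was 0.145, 0.0298, 0.0109 and 0.174 in replicates 4501 to 4504, above the WT range in replicates 4501 and 4504 and below it in the others. In the 4 niacin-treated nerves it was 0.0503, 0.0902, 0.0929 and 0.0519, which follows from the levels of both genes given above and adds no comparison to them. The ratio to *Lyve1* was 0.127 to 0.261 under niacin against 0.218 to 0.288 in WT controls, and that to *Cd163* 0.0888 to 0.184 against 0.147 to 0.213, with overlap in both.

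Among the recruiting factors, *Csf1* was at 33.2, 31.5, 33.9 and 44.2 CPM in WT controls, at 35.6, 19.6, 22.5 and 29.3 CPM in *Mtmr2* KO, and at 29.8, 29.6, 28.9 and 30.1 CPM under niacin. The treated nerves lay close together and below all WT controls. The log2 fold change was -0.42 (SE 0.17, 95% CI -0.79 to -0.05, adjusted p = 0.236) for KO against WT and -0.27 (SE 0.17, adjusted p = 0.324) for niacin against WT, the latter -0.15 without WT control replicate 4500, the highest of the 12. For KO against WT it was -0.34 without the library labelled replicate 4503 and -0.13 without replicates 4502 and 4503. *Il34*, the other ligand of the receptor, was at 77.1 to 82.4 CPM in WT controls, 56.8 to 96.8 CPM in *Mtmr2* KO and 43.1 to 66.8 CPM under niacin. Niacin-treated minus untreated *Mtmr2* KO nerves gave -0.58 on the log2 scale (SE 0.17, adjusted p = 0.0916), and the treated nerves lay below all WT controls. Not overlapping WT controls was shared with 31.4% of all genes. The mean of *Csf1* was 29.6 ± 0.528 CPM in treated and 26.8 ± 7.17 CPM in untreated *Mtmr2* KO nerves (SD, n = 4 each), a log2 fold change of 0.15 that turned to -0.025 with limma-voom and to -0.14 without replicates 4502 and 4503.

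*Ccl2* showed the widest differences of the set. It was at 3.13, 2.37, 3.41 and 4.71 CPM in WT controls (66 to 138 counts), at 2.30, 5.60, 0.833 and 7.22 CPM in *Mtmr2* KO replicates 4501 to 4504 (26 to 150 counts), and at 10.2, 7.85, 10.6 and 19.6 CPM in niacin-treated replicates 4505 to 4508 (181 to 458 counts). Every treated nerve was above all 8 others. The difference of treated and untreated *Mtmr2* KO nerves was 1.62 on the log2 scale (SE 0.50, 95% CI 0.55 to 2.68, adjusted p = 0.103), a 3.07-fold higher fitted level, and 7.01% of all genes likewise did not overlap in that comparison. Against WT controls it was 1.82 (SE 0.50, 95% CI 0.76 to 2.89, adjusted p = 0.0937). *Mtmr2* KO and WT nerves overlapped, with a log2 fold change of 0.21 (SE 0.50, 95% CI -0.86 to 1.28). Without the library labelled replicate 4503 it was 0.55, and the difference of treated and untreated *Mtmr2* KO nerves was 1.27.

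The call on *Ccl2* depended on the test. DESeq2 called it against untreated *Mtmr2* KO (adjusted p = 0.0150) and against WT (adjusted p = 0.00798), with 6.22% and 7% of all genes. Limma-voom with sample quality weights did likewise (adjusted p = 0.0301 and 0.000635), with 11.6% and 42.4% of all genes. So did edgeR without a filter on low counts (adjusted p = 0.0301 and 0.0331). That setting called 1.01%, 1.69% and 0.918% of all genes in the 3 comparisons. Over all settings the adjusted p of edgeR, DESeq2 and limma-voom ran from 0.0150 to 0.284 against *Mtmr2* KO and from 0.000635 to 0.245 against WT, and the log2 fold change stayed between 1.27 and 2.08 and between 1.48 and 2.09.

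Of the neighbouring chemokines, *Ccl7*, which also binds CCR2, was at 7.79, 6.33, 7.90 and 12.6 CPM under niacin against 2.19 to 5.53 CPM in WT controls. In *Mtmr2* KO it was at 4.11, 6.77, 0.321 and 5.44 CPM, so that replicate 4502 overlapped the treated group. *Ccl11*, the eosinophil chemokine eotaxin and the most abundant of the row per kilobase, was at 172 to 221 CPM under niacin, 87.4 to 118 CPM in WT controls and 77.6 to 211 CPM in *Mtmr2* KO. *Ccl12* was at 2.60 to 4.03 CPM, 1.51 to 2.15 CPM and 0.961 to 6.86 CPM in the same groups. The 3 genes were separate from WT controls under niacin, as were 31.4% of all genes, with log2 fold changes of 1.37, 0.96 and 0.84 and adjusted p of 0.172, 0.0838 and 0.272. *Ccl8* overlapped in all comparisons, from 0.0961 to 7.51 CPM. The library labelled replicate 4503 was the lowest of 12 for all 5 genes of the row.

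**Figure D3:**
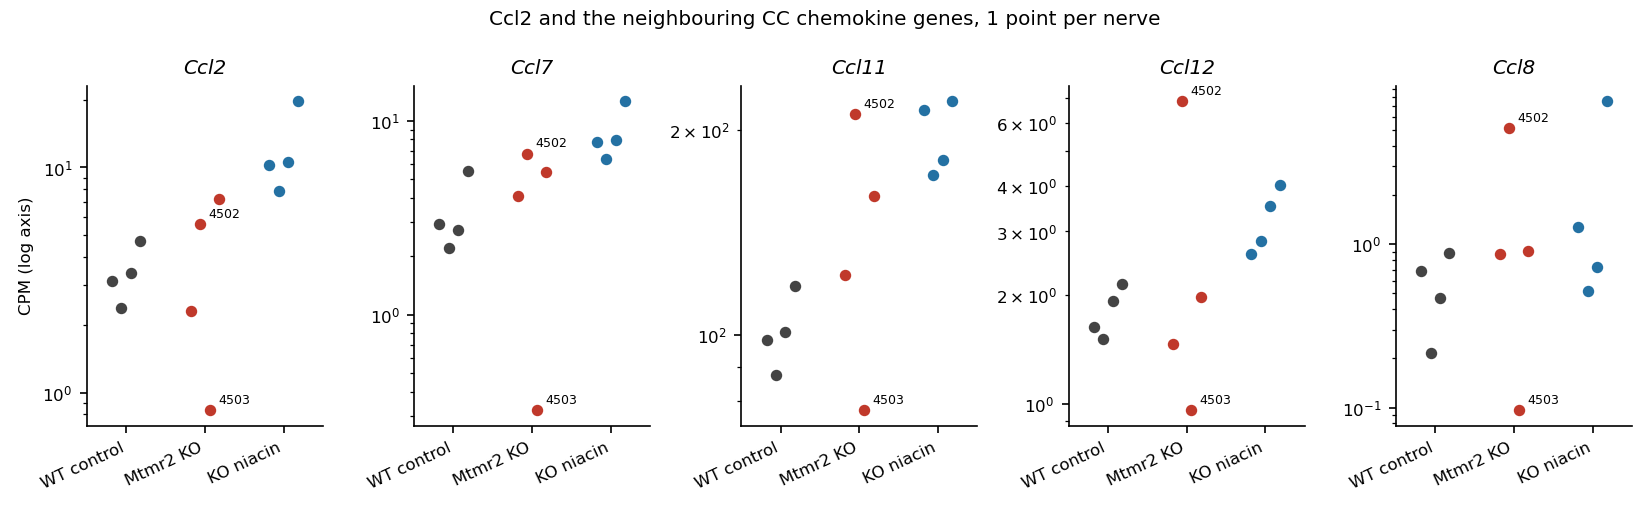
CPM on a log axis of *Ccl2* and the 4 CC chemokine genes that follow it on chromosome 11, 1 point per nerve, with *Mtmr2* KO replicates 4502 and 4503 labelled. Niacin-treated nerves lie above all 4 WT controls for *Ccl2*, *Ccl7*, *Ccl11* and *Ccl12*, but above all untreated *Mtmr2* KO nerves only for *Ccl2*.

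The other genes of macrophages and of their recruitment were described by lists. Their counts stand beside these shares of all genes in *Mtmr2* KO against WT, niacin against *Mtmr2* KO and niacin against WT. The test of edgeR called 0.267%, 1.43% and 0%, and 17.2%, 20.1% and 24.7% had an unadjusted p under 0.05. DESeq2 called 3.71%, 6.22% and 7%, and limma-voom 0.626%, 11.6% and 42.4%. Of 22 further pan-macrophage genes, edgeR called none in any comparison, with unadjusted p under 0.05 for 5, 1 and 5 genes in *Mtmr2* KO against WT, niacin against *Mtmr2* KO and niacin against WT. DESeq2 called 0, 0 and 1 of them and limma-voom 0, 0 and 14, the last at a setting that called 42.4% of all genes. The median log2 fold changes were 0.36, -0.0018 and 0.41, and 0.11, 0.30 and 0.39 without *Mtmr2* KO replicate 4502. *Lyz2*, encoding lysozyme, was at 157 to 229 CPM in WT controls, at 157, 560, 191 and 274 CPM in *Mtmr2* KO and at 212 to 393 CPM under niacin. The complement genes *C1qa*, *C1qb* and *C1qc* were likewise highest in *Mtmr2* KO replicate 4502, at 189, 152 and 182 CPM.

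Of 15 other epineurial type genes, none was called by edgeR, 0, 5 and 3 had an unadjusted p under 0.05, DESeq2 called none and limma-voom 0, 3 and 3. Their median log2 fold changes were -0.25 for KO against WT, 0.63 for niacin against KO and 0.36 for niacin against WT. Their median difference from the WT mean was lowest of the 12 nerves in the library labelled *Mtmr2* KO replicate 4503, at -1.38 on the log2 scale against -0.75, 0.49 and -0.13 in the other untreated *Mtmr2* KO nerves. The first 2 medians were -0.12 and 0.42 without that library, and -0.60 and 1.11 without replicate 4502. The transcription factor *Maf* was at 198 to 373 CPM, the scavenger receptor *Stab1* at 103 to 186 CPM, and *F13a1*, the transglutaminase factor XIII subunit, was at 537 CPM in replicate 4502 against 132 to 246 CPM elsewhere. Of 13 tested genes of the phagocytic and lipid handling program, none was called by edgeR, 3, 6 and 3 had an unadjusted p under 0.05, DESeq2 called 2, 4 and 0 and limma-voom 1, 4 and 5. *Apoe*, *Cd9* and *Spp1*, which Schwann cells also make, were each highest in replicate 4502. *Ctsb*, the lysosomal protease cathepsin B, was at 798 to 890.4 CPM in WT controls, at 582 to 937 CPM in *Mtmr2* KO and at 1031 to 1252 CPM under niacin. Its treated nerves did not overlap either group, with log2 fold changes of 0.54 against *Mtmr2* KO and 0.43 against WT (adjusted p = 0.0953 and 0.144).

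Of 11 tested receptors of attractants, edgeR called 1, in *Mtmr2* KO against WT, where 0.267% of all genes were called. *Cmklr1*, the chemerin receptor, was at 33.5, 34.2, 33.7 and 30.8 CPM in WT controls, at 19.2, 12.8, 16.6 and 16.2 CPM in *Mtmr2* KO and at 19.3, 24.6, 20.8 and 18.7 CPM under niacin. It fell in *Mtmr2* KO against WT, at -1.03 on the log2 scale (SE 0.14, adjusted p = 0.0364), and the treated nerves also lay below WT (log2 fold change -0.66, adjusted p = 0.0833). No list gene was called in *Mtmr2* KO against WT when any 1 of the 4 WT controls or niacin-treated replicate 4507 or 4508 was left out, or when only the 2 groups were fitted. *Tnfrsf1a*, a TNF receptor, was at 62.9 to 69.4 CPM in WT controls, 31.0 to 73.0 CPM in *Mtmr2* KO and 37.5 to 57.7 CPM under niacin. *Ccr2*, the receptor of CCL2, was at 13.9 to 20.6 CPM in WT controls, at 20.2, 58.9, 6.44 and 25.4 CPM in *Mtmr2* KO and at 21.5 to 36.7 CPM under niacin. It was separate from WT only under niacin, with a log2 fold change of 0.62 (adjusted p = 0.384). Of 12 tested attractants other than *Ccl2*, none was called by edgeR, 3, 0 and 7 had an unadjusted p under 0.05, DESeq2 called 1, 0 and 3 and limma-voom 0, 0 and 9. In niacin against WT the shares of all genes were 24.7% at an unadjusted p under 0.05, 7% with DESeq2 and 42.4% with limma-voom. *Rarres2*, encoding chemerin, the ligand of *Cmklr1*, was at 60.3 to 82.2 CPM in WT controls, 64.6 to 154 CPM in *Mtmr2* KO and 81.5 to 102 CPM under niacin. *Cxcl12*, a stromal attractant, was at 177 to 189 CPM in WT controls and lower in all 8 other nerves (55.9 to 144 CPM, log2 fold changes of -0.79 and -0.70, adjusted p = 0.117 and 0.114). *Csf2*, *Tnf*, *Il1b* and *Il6* were at or under 0.628 CPM in every nerve.

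Of 10 tested genes of the CSF axis, none was called by edgeR, 1, 4 and 4 had an unadjusted p under 0.05, DESeq2 called 1, 1 and 1 and limma-voom 1, 2 and 4. The myeloid factor *Cebpa*, which adipocytes also express, was at 148 to 244 CPM in WT controls and 53.4 to 105 CPM in *Mtmr2* KO (log2 fold change -1.28, adjusted p = 0.0526). *Dap* was at 52.3 to 95.2 CPM over the 12 nerves.

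Leaving out *Mtmr2* KO replicates 4502 and 4503 together changed the direction or the call of 8 of the 10 genes in at least 1 comparison, the exceptions being *Csf1r* and *Trem2*. Any fit without replicate 4502 holds no untreated *Mtmr2* KO female, while each other group keeps 1. Without replicate 4502 edgeR called 5 of 10 in niacin against *Mtmr2* KO, namely *Adgre1* (log2 fold change 0.83, adjusted p = 0.0107), *Cd68* (0.56, 0.0375), *Mrc1* (0.63, 0.0457), *Trem2* (0.74, 0.0375) and *Ccl2* (1.82, 0.0308). The same fit called 23.6% of all genes in that comparison, 21.6% in niacin against WT and 0.446% in *Mtmr2* KO against WT. Without both libraries, a choice made after seeing the data, *Adgre1* (0.78) and *Mrc1* (0.92) were called, with 12.5% of all genes. Against WT controls, *Adgre1*, *Cd68*, *Cx3cr1*, *Mrc1* and *Ccl2* were called when only the 2 groups compared were fitted, and the same 5 genes when replicates 4502 and 4503 were left out. All genes were called there at 33.9% and 29.6%. Limma-voom with sample quality weights called fewer members in that comparison, with 42.4% of all genes. In *Mtmr2* KO against WT no member was called under any setting (0.0619% of all genes without both libraries and 0% with 2 groups fitted, as in niacin against *Mtmr2* KO), and leaving out replicate 4502 turned the log2 fold change of *Adgre1* to -0.26 and of *Mrc1* to -0.16.

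**Figure D4:**
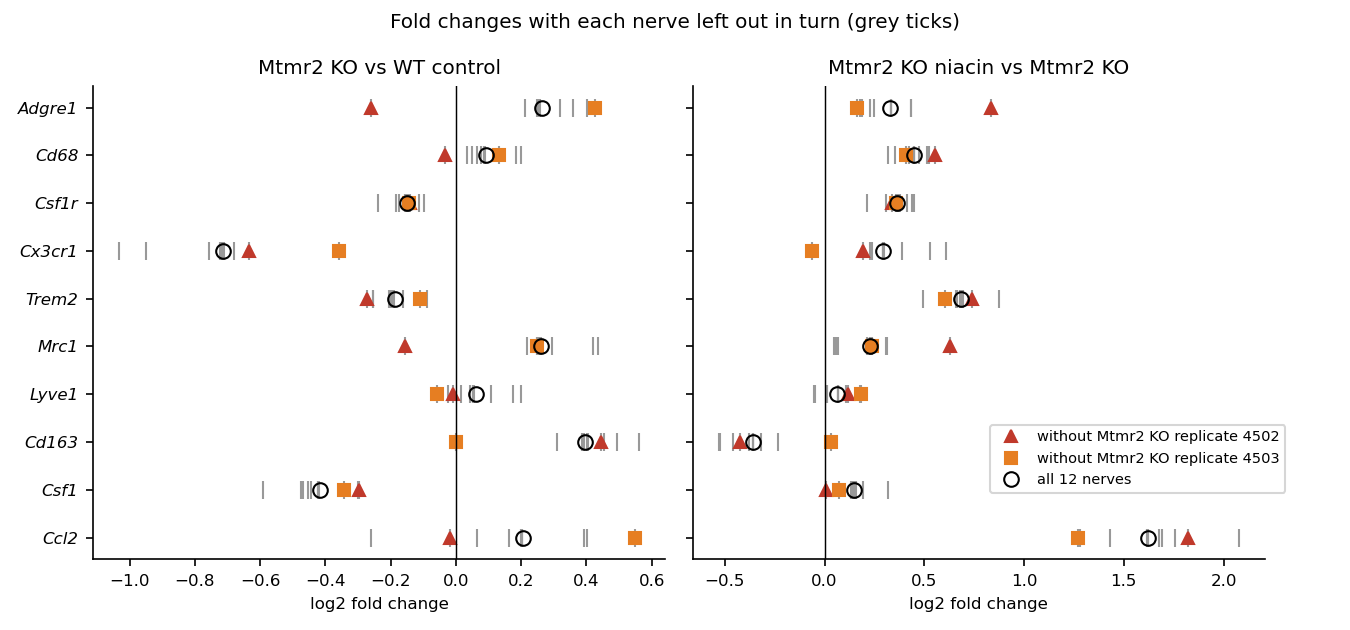
Log2 fold change of each gene with all 12 nerves (open circles) and with each nerve left out in turn (grey ticks), for 2 comparisons, with the fits without *Mtmr2* KO replicates 4502 and 4503 marked. Without replicate 4502 *Adgre1* moves from 0.26 to -0.26 in the left panel and from 0.33 to 0.83 in the right panel, whereas *Ccl2* stays between 1.27 and 2.08 in the right panel.

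Marker lists of other cells moved with some of these libraries. Neutrophil genes summed to 18.3, 16.4 and 6.09 CPM in *Mtmr2* KO replicates 4501, 4502 and 4503, where *Ccl2* was at 2.30, 5.60 and 0.833 CPM. They summed to 11.6 CPM in niacin-treated replicate 4508, the nerve highest in *Ccl2*, and to 1.05 to 1.73 CPM in the other 8. None of the 4 neutrophil genes tested was called by edgeR in *Mtmr2* KO against WT (unadjusted p under 0.05 for 3), whereas DESeq2 called all 4 and limma-voom 0. Mast cell genes summed to 85.4 to 102 CPM under niacin, 44.3 to 64.3 CPM in *Mtmr2* KO and 52.9 to 98.2 CPM in WT controls. The granule proteases *Cpa3*, *Cma1*, *Mcpt4* and *Tpsb2* rose under niacin against *Mtmr2* KO, by log2 fold changes of 1.49, 1.65, 1.74 and 1.40 (adjusted p = 0.0401, 0.0457, 0.0401 and 0.0383). *Kit*, the stem cell factor receptor of mast cells, which the list also holds, had the opposite sign, at -1.55 on the log2 scale (adjusted p = 0.0774). It was at 10.2 to 47.3 CPM in *Mtmr2* KO, the highest in the library labelled replicate 4503, and at 5.06 to 11.1 CPM under niacin. DESeq2 called all 6 mast cell genes tested. Skeletal muscle genes summed to 3167 and 3121 CPM in niacin-treated replicates 4506 and 4507 and to at most 89.2 CPM elsewhere, and *Acta1*, *Ckm*, *Tnnt3* and *Mylpf* were called. No gene of any list was called in this comparison without either or both of these 2 libraries, without the library labelled *Mtmr2* KO replicate 4503 or without any 1 WT control. *Ccl2* was at 7.85 and 10.6 CPM in replicates 4506 and 4507 and at 10.2 and 19.6 CPM in the other treated nerves.

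Monocyte genes summed to 396 to 1028 CPM, mostly through *Fn1*, *Ace* and *Nr4a1*, which other nerve cells also express, and the defining gene *Ly6c2* was at or under 0.858 CPM in all 12 nerves. Lymphocyte genes summed to at most 5.38 CPM. Blood endothelium genes summed to 226 CPM in *Mtmr2* KO replicate 4502 and 632 CPM in replicate 4503, the lowest and the highest of all nerves, to 494 to 552 CPM in WT controls and to 251 to 389 CPM under niacin. Adipocyte genes summed to 2729 to 3555 CPM in WT controls, 786 to 4605 CPM in *Mtmr2* KO and 2211 to 4525 CPM under niacin. Of these genes, *Plin1* and *Lep* fell in *Mtmr2* KO against WT by 1.84 and 2.03 on the log2 scale (adjusted p = 0.0448 and 0.0364). Of these 2 calls 0 were left without *Mtmr2* KO replicates 4502 and 4503 or without any 1 WT control, and 1 without niacin-treated replicates 4506 and 4507. *Lep* rose again under niacin (log2 fold change 1.84, adjusted p = 0.0383). Without *Mtmr2* KO replicate 4502 all 8 adipocyte genes had a positive log2 fold change in niacin against *Mtmr2* KO (median 1.33). Without replicate 4504 it was 7 of 8 (median 0.41). Of 8 fibroblast genes, 7 had a positive log2 fold change in niacin against *Mtmr2* KO (median 0.80). The test of edgeR called 0 of them (unadjusted p under 0.05 for 4), DESeq2 2 and limma-voom 0, and they summed to 11734 to 17691 CPM in WT controls, 8026 to 12514 CPM in *Mtmr2* KO and 11311 to 19170 CPM under niacin. *Lum*, the matrix proteoglycan lumican, was at 974 to 1434 CPM under niacin against 186 to 814 CPM in *Mtmr2* KO. Both low ends were the library labelled replicate 4503, and in the other 3 untreated *Mtmr2* KO nerves the sum was 10846 to 12514 CPM and *Lum* was at 717 to 814 CPM. Without that library the fibroblast median was 0.61. Lymphatic endothelium genes summed to 239.5 to 638 CPM, perineurial genes to 636 to 1167 CPM and erythrocyte genes to 189 to 1082 CPM over the 12 nerves. The lymphatic sum was mostly *Reln* (176 to 607 CPM), while *Prox1* and *Mmrn1* reached at most 5.88 and 35.8 CPM. The part of any of these cells in the levels of the 10 genes was not tested.

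**Figure D5:**
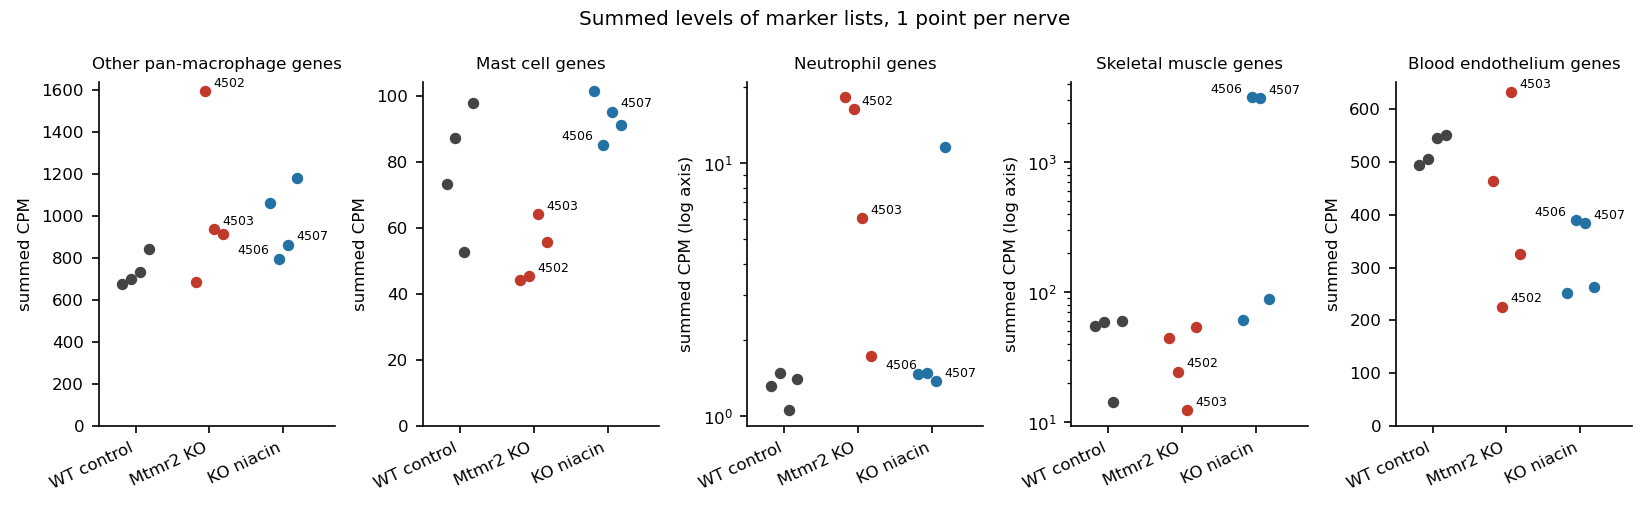
Summed CPM of 5 marker lists in each of the 12 nerves, by group, on log axes for neutrophil and skeletal muscle genes and linear axes from 0 for the others, with 4 libraries labelled. Other pan-macrophage genes are highest in *Mtmr2* KO replicate 4502 (1594 CPM), mast cell genes are higher in all niacin-treated than in all untreated *Mtmr2* KO nerves, and muscle genes stand out in niacin-treated replicates 4506 and 4507.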

How the data were processed

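The authors deposited raw read counts per gene (unit: counts) for the 12 libraries. The submitters' processing notes name CASAVA 1.9, STAR, DESeq2 and the build GRCm38 (mm10). No source used here states the counting program, the annotation release or the use of strand. The authors' tables of their own DESeq2 comparisons also hold fold changes and p-values, and only their pairing of Ensembl IDs with symbols was used (42615 of 43432 genes, of which 42548 were found in GENCODE M21). Genes were filtered with filterByExpr, scaled by TMM and fitted in 1 model over the 12 libraries with edgeR 4.0.16 in R 4.3.3, and p-values were Benjamini-Hochberg adjusted over 17257 genes. The SE is the absolute log2 fold change divided by the square root of F. CPM are TMM-scaled, and CPM per kb use the principal transcript. Total counts were 20763951 to 33191106 per library, and low counts such as the 26 to 458 of *Ccl2* limit precision. Alternatives were DESeq2 1.42.0, limma-voom (limma 3.58.1), other filters and scaling, *Xist* as a covariate, fits of 2 groups and libraries left out. The tests were tried on simulated data. The members and lists were chosen with earlier results of these data known. From the lists of macrophage and recruitment genes, the text names the genes called in any comparison and the 3 with the highest mean CPM over the 12 nerves. Lists of other cell types are given by their sums, with the genes called. Further genes (*Ccl7*, *Ccl8*, *Ccl12*, *Mertk*, *Retnla*, *Cd209f*, *C1qb*, *Spp1*, *Kit*, *Lum*, *Prox1*, *Reln*, *Mmrn1*, *Ly6c2*, *Fn1*, *Ace*, *Nr4a1*, *Csf2*, *Tnf*, *Il1b* and *Il6*) were chosen after their values were seen. Each library is 1 mouse.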

Additional observations from a re-analysis of the deposited data

Results flagged for a closer look

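Within each group of 4 nerves, the gap of the highest or lowest nerve to its neighbour was divided by the range of the group, for the 10 genes and for 20 summed lists. Of 90 groups examined, 7 passed Dixon's 95% critical value, and chance gives about 1 in 20. *Adgre1* in untreated *Mtmr2* KO had a ratio of 0.892, from replicate 4502 (64.1 CPM against 21.3 to 25.9 CPM). The summed epineurial type genes in the same group had 0.875, again from replicate 4502 (1272 CPM against 740.3 to 807 CPM). Under niacin the neutrophil genes had 0.990, from replicate 4508 (11.6 CPM), the lymphatic genes 0.844 and the phagocytic program 0.928, both from the low sum of replicate 4508 (239.5 and 7318 CPM). The lymphatic sum there was mostly *Reln*, at 176 CPM. In the same nerve *Prox1* (2.40 CPM) and *Mmrn1* (24.4 CPM) lay within the range of the other treated nerves. In WT controls the monocyte genes had 0.953, from the high sum of replicate 4497 (1028 CPM), and the muscle genes 0.876, from the low sum of replicate 4499 (14.2 CPM).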

How the results depend on the processing

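No paired analysis was possible because the replicate numbers in the labels are not shared between groups. No member was called in *Mtmr2* KO against WT under any of 21 alternatives. In niacin against *Mtmr2* KO, where edgeR called 0, DESeq2, limma-voom and edgeR without a filter each called 1 (*Ccl2*), leaving out 1 library gave 0 to 5, and leaving out *Mtmr2* KO replicates 4502 and 4503 (added after seeing the data) gave 2. The single calls came without *Mtmr2* KO replicate 4504 (*Ccl2*, 2.08) and without niacin-treated replicate 4505 (*Trem2*, 0.87). In niacin against WT, again from 0, DESeq2 and edgeR without a filter called 1, limma-voom 4, the 2 groups alone 5, libraries left out 0 to 3 (3 without replicate 4502, 1 without 4503), and leaving out both 5. Leaving out niacin-treated replicates 4506 and 4507, also added, called none. Of the fits with libraries left out, the share of all genes called is given only without replicate 4502 and without replicates 4502 and 4503. The members called in the other such fits were not set against it.

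Directions turned for members with small differences, and the cause was not tested. In *Mtmr2* KO against WT, limma-voom gave log2 fold changes of -0.12 for *Adgre1*, -0.27 for *Mrc1*, -0.030 for *Lyve1* and -0.003065 for *Cd163*, and no filter gave -0.014 for *Lyve1*. With 1 library left out, the range was -0.26 to 0.43 for *Adgre1*, -0.032 to 0.20 for *Cd68*, -0.16 to 0.44 for *Mrc1*, -0.058 to 0.20 for *Lyve1* and -0.26 to 0.55 for *Ccl2*. Without replicates 4502 and 4503 the values were -0.19 for *Adgre1*, -0.024 for *Cd68*, -0.43 for *Mrc1*, -0.23 for *Lyve1* and -0.12 for *Cd163*. In niacin against *Mtmr2* KO, the range was -0.065 to 0.61 for *Cx3cr1*, -0.051 to 0.18 for *Lyve1* and -0.53 to 0.033 for *Cd163*. Without both libraries the values were -0.32 for *Cx3cr1*, 0.15 for *Cd163* and -0.14 for *Csf1*, and limma-voom gave -0.025 for *Csf1*. In niacin against WT, *Cd163* was -0.20 with limma-voom, -0.016 without a filter and -0.14 to 0.16 with 1 library left out. *Ccl2* stayed positive in both niacin comparisons under all 21 alternatives. List genes called by edgeR numbered 3, 9 and 0 in the 3 comparisons, where 0.267%, 1.43% and 0% of all genes were called. Over the alternatives they numbered 0 to 19, 0 to 56 and 0 to 75. Among the alternatives for which it is given, the share of all genes called reached 3.71%, 23.6% and 42.4%.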
